A study of Mus musculus with 5 samples.

Results

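The cells described here are those that the authors' deposited annotation assigns to the thick ascending limb of the loop of Henle. They were chosen by that label alone and number 1935 of 23797 annotated cells. The cells came from kidneys of 5 mice after ischemia-reperfusion injury (IRI), in which blood flow to the kidney is stopped and then restored. Mice 3, 4 and 5 were sampled at day 10 and gave 419, 195 and 293 thick ascending limb cells, and mice 1 and 2 were sampled at 48 h and gave 683 and 345. Each mouse is 1 droplet single-cell RNA library and 1 replicate, and no uninjured kidney is among the samples, so every comparison is between a late and an early time after injury. The labels name the injury, the time and the tissue, and give neither strain, genotype, age nor batch.

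The thick ascending limb reabsorbs sodium chloride without water, which dilutes the tubule fluid and keeps the renal medulla concentrated. The cotransporter NKCC2 (Slc12a1) and the potassium channel ROMK (Kcnj1) sit in the apical membrane, sodium and chloride leave across the basolateral membrane, and the resulting voltage drives calcium and magnesium through claudin channels between the cells. The same cells make uromodulin (Umod), the most abundant protein of normal urine.

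The thick ascending limb cells held 8176809, 3869169 and 5423399 unique molecular identifiers (UMIs, counted molecules) in the day 10 mice and 14712062 and 8173091 in the 48 h mice. The median was 16880 to 18766 UMIs per cell at day 10 and 20172 and 23939 at 48 h. Library pairs shared 10 to 23 barcodes among all those of the deposited matrices. Among thick ascending limb cells 1 barcode was shared, between mice 1 and 5. The kept cells have under 35% mitochondrial UMIs. The median percent of mitochondrial UMIs in the thick ascending limb was 7.20, 8.70 and 6.89 at day 10, against 22.97 and 21.82 at 48 h. Of the thick ascending limb cells 1.91, 1.54 and 2.05% lay between 30% and that limit at day 10, against 17.3 and 15.7% at 48 h. RNA of other cell types also differed. The 9 macrophage markers, all detected in every mouse, summed to 895 to 1218 counts per 1000000 UMIs (CPM) in thick ascending limb cells at day 10 and to 49.0 and 60.0 CPM at 48 h. The 6 neutrophil markers summed to 10.6 to 40.1 CPM at day 10 and 143 and 608 CPM at 48 h, and 5 red blood cell markers to 0.517 to 20.4 CPM at day 10 and 637 and 92.7 CPM at 48 h.

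The markers matched the label. Summed over the cells of a mouse, Slc12a1 was 125, 208 and 164 times as high in thick ascending limb cells as in the other kept cells at day 10 and 40.1 and 86.9 times at 48 h. The ratio for Umod was 60.5, 145 and 54.0 at day 10 and 25.8 and 52.0 at 48 h. For the magnesium and calcium pore claudin-16 (Cldn16) the ratio was 56.7, 47.4 and 58.1 at day 10 and 26.4 and 27.6 at 48 h. Ppp1r1a, an inhibitor of protein phosphatase 1, was less particular. It was 9.52 to 18.02 times as high as in the other cells, but in mice 3 and 5 cells labelled distal convoluted tubule had more of it (659 and 552 CPM) than the thick ascending limb (258 and 331 CPM).

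Thick ascending limb cells made up 7.09, 4.99 and 5.47% of kept cells at day 10 and 13.95 and 9.27% at 48 h. The ranges did not overlap, but the difference did not pass the test across the 18 labels (log2 fold change -0.99, SE 0.39, edgeR quasi-likelihood test with Benjamini-Hochberg adjusted p = 0.0771). Counted among cells with under 20% mitochondrial UMIs, the shares were 7.68, 5.03 and 5.83% at day 10 and 6.14 and 4.47% at 48 h, and the sign was the opposite (log2 fold change 0.22). That limit left 395, 181 and 270 thick ascending limb cells at day 10 but only 216 and 134 at 48 h. The median 48 h cell lay above it, so it lowers the 48 h share by construction and cannot test the fall. Without mouse 2 the fall passed (log2 fold change -1.25).

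UMIs were summed per mouse and compared between day 10 and 48 h. CPM below are scaled with trimmed-mean (TMM) factors, and folds are day 10 over 48 h on the log2 scale with their standard error (SE). Each adjusted p is from edgeR's quasi-likelihood test with Benjamini-Hochberg correction over all 12797 genes tested, called below 0.05. In all, 1325 genes (10.4%) differed, 637 (4.98%) higher and 688 (5.38%) lower at day 10. These percentages are the background for each group of genes below. Without mouse 5 only 86 genes passed. Of the 100 named genes that passed with all mice 76 then failed. Without TMM factors 3231 genes were higher and 253 lower, and the median of all genes moved from 0.00 to 0.36. A sum over cells cannot tell a change within cells from a change in which kinds of thick ascending limb cell were sampled.

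**Figure D1:**
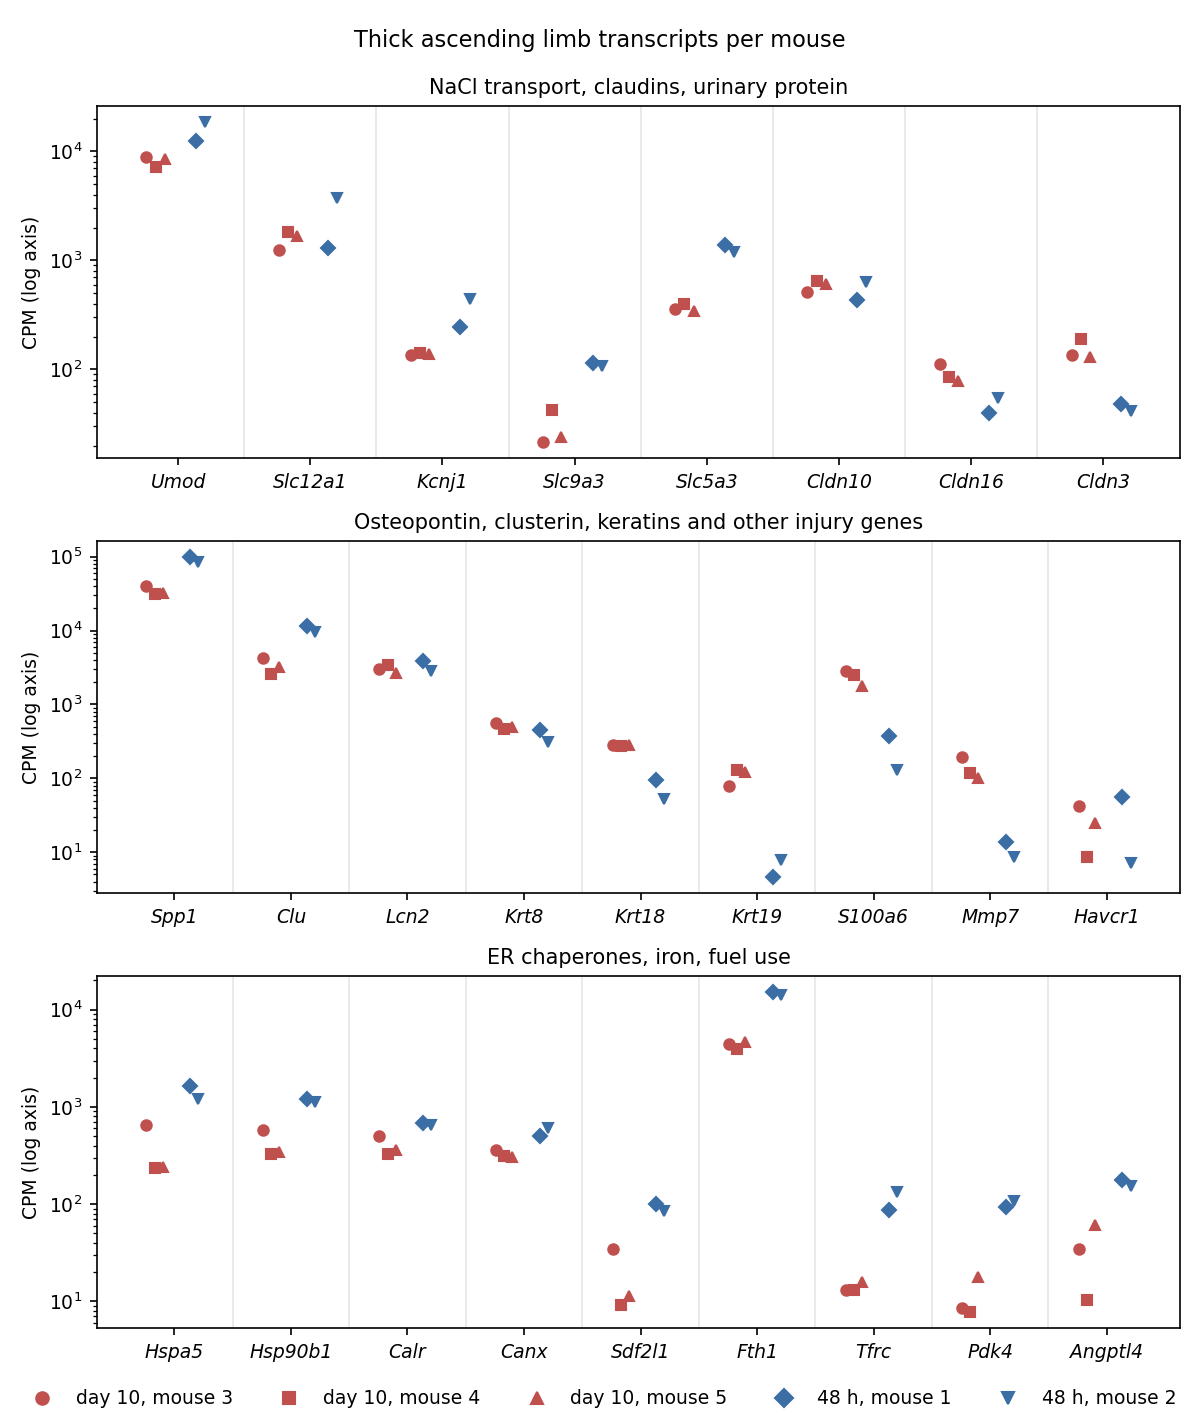
Level of named genes in thick ascending limb cells of each mouse, in TMM-scaled CPM on a log axis, with day 10 mice left of 48 h mice in transport, injury and stress or metabolism panels. Slc5a3, Tfrc and Pdk4 are lower and Krt19 and S100a6 higher in all 3 day 10 mice than in both 48 h mice, whereas Slc12a1 and Lcn2 overlap.

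Of 20 genes for sodium chloride entry, exit and their control, 5 were lower and 0 higher at day 10, with a median log2 fold change of -0.65 (-0.29 without TMM factors), against 0.00 over all genes. Slc12a1 itself was 1244, 1833 and 1658 CPM at day 10 and 1311 and 3735 CPM at 48 h. The 48 h mice lay on either side of most of the day 10 range, and the gene did not pass (log2 fold change -0.68, SE 0.38, adjusted p = 0.283, edgeR). It was 0.26 without mouse 2, and -1.25 and passing without mouse 1. The apical potassium channel Kcnj1 had 135, 142 and 139 CPM at day 10 against 244 and 446 CPM at 48 h (log2 fold change -1.31, SE 0.23, adjusted p = 0.0165). Every day 10 mouse lay below both 48 h mice. The apical sodium-proton exchanger NHE3 (Slc9a3) fell the most of the list. It was down to 21.6, 42.5 and 23.9 CPM at day 10, against 115 and 108 CPM at 48 h (log2 fold change -1.95, SE 0.26, adjusted p = 0.00863).

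Also lower were Kcnj16, a basolateral potassium channel subunit (log2 fold change -0.88), and Ppp1r1a (-1.33). The channel subunit barttin (Bsnd, 0.06), the kinases Stk39 (-0.31) and Oxsr1 (-0.36) that phosphorylate NKCC2, and the sodium-potassium ATPase subunits Atp1b1 (-0.68) and Fxyd2 (-0.79) did not pass. None of the 20 passed without mouse 5, when the log2 fold changes were -1.31 for Kcnj1, -1.82 for Slc9a3, -0.75 for Kcnj16 and -1.38 for Ppp1r1a. Kcnj1 also failed without mouse 4 (-1.33) and Ppp1r1a without mice 2, 3 or 4 in turn (-0.70 to -1.39). Among cells with under 20% mitochondrial UMIs 5 of the list still passed as lower.

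Claudins moved differently from each other. Of 10 tested tight junction genes 2 were higher and 1 lower (median log2 fold change 0.06, and 0.41 without TMM factors). Cldn16 was 111.9, 84.9 and 78.6 CPM at day 10 and 40.0 and 54.6 CPM at 48 h (log2 fold change 0.97, SE 0.20, adjusted p = 0.0281). Cldn3, a sealing claudin, was 134, 191 and 130 CPM at day 10 and 48.5 and 41.6 CPM at 48 h (log2 fold change 1.74, SE 0.20, adjusted p = 0.00504). Both were above the 48 h range in every day 10 mouse. Cldn10, whose product forms the sodium pore of this segment, was 507, 645 and 613 CPM at day 10 and 433 and 640 CPM at 48 h and did not pass (log2 fold change 0.13). Cldn19, the partner of claudin-16 (-0.19), and Cldn14, which blocks that pore (-0.71), did not pass either. Occludin (Ocln) was lower (-0.63, and -0.27 without TMM factors, when it failed). Cldn3 passed under all 14 alternatives. Cldn16 failed without mouse 1, 3, 4 or 5 (log2 fold changes 0.75, 0.81, 1.02 and 1.07) and Ocln without the same mice (-0.66 to -0.58).

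In the mouse thick ascending limb, cells with the claudin-16 pore and cells with the claudin-10 pore form a mosaic. With each cell thinned to 10000 UMIs and at least 2 UMIs counted as presence, 33.1, 21.6 and 23.04% of cells at day 10 and 6.98 and 14.8% at 48 h held Cldn16. Among the cells with Cldn16, 50.9, 51.5 and 60.4% at day 10 and 40.5 and 56.1% at 48 h also held Cldn10, whereas of the cells without it 83.8, 78.3 and 86.4% at day 10 and 67.3 and 82.6% at 48 h did. In all 5 mice Cldn10 was thus less frequent beside Cldn16, a description with no test, on 37 and 41 Cldn16 cells at 48 h and 33 to 116 at day 10. Between 42 and 153 cells per mouse were too shallow for this depth and were left out.

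Hormone receptors and their enzymes gave 2 lower and 0 higher of 9 tested (median log2 fold change -0.40, and -0.04 without TMM factors). The prostaglandin E2 receptor EP3 (Ptger3), which restrains cyclic AMP in this segment, was 51.1, 56.4 and 74.2 CPM at day 10 and 178 and 103 CPM at 48 h (log2 fold change -1.22, SE 0.25, adjusted p = 0.0255). The adenylyl cyclase Adcy6 was lower by a smaller margin (-0.60, and -0.25 without TMM factors, when it failed). The calcium-sensing receptor Casr (-0.18), the parathyroid hormone receptor Pth1r (-0.40), the glucagon receptor Gcgr (-1.14) and the vasopressin receptor Avpr2 (0.10) did not pass. Ptger3 failed without mice 3, 4 or 5 in turn (-1.10, -1.17 and -1.39) and Adcy6 without each of mice 2 to 5 (-0.65 to -0.44), so that 0 receptors passed without mouse 3, 4 or 5.

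Among secreted proteins 1 was lower and 2 higher of 7 tested (median log2 fold change -0.28, and 0.08 without TMM factors). Umod was 8841, 7121 and 8528 CPM at day 10 and 12458 and 18487 CPM at 48 h (log2 fold change -0.92, SE 0.21, adjusted p = 0.0346). It was lower in every day 10 mouse, but the call was lost without mouse 2, 3, 4 or 5 (-0.61, -0.97, -0.83 and -0.95). It was also lost without TMM factors (-0.57) and among cells with under 20% mitochondrial UMIs (-0.75). The Wnt antagonist Sfrp1 was 105, 68.9 and 92.6 CPM at day 10 and 21.2 and 30.4 CPM at 48 h (log2 fold change 1.80, SE 0.23, adjusted p = 0.00748). The ligand Bmp3 was 9.20, 9.44 and 10.8 CPM at day 10 and 1.68 and 3.09 CPM at 48 h (log2 fold change 2.09, SE 0.31, adjusted p = 0.0113). Both failed without mouse 5 (1.78 and 2.01) and among cells with under 20% mitochondrial UMIs (0.90 and 1.51). Egf, the growth factor precursor made in the distal nephron, was 91.4, 80.5 and 113.9 CPM at day 10 and 58.6 and 328 CPM at 48 h and did not pass (log2 fold change -1.01, SE 0.57). It was -1.78 and passing without mouse 1, and 0.70 without mouse 2.

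None of 14 transcription factors of the segment passed with edgeR (median log2 fold change -0.18, and 0.18 without TMM factors), and 1, Tfap2b, passed with DESeq2. The iroquois factors Irx1 (0.11) and Irx2 (-0.01) had small values. Pax8, a tubule factor, was 0.36, with a passing 1.02 without mouse 1 and -0.09 without mouse 2. Tfap2b (-0.88) and the estrogen-related receptor Esrrg (-0.71) were below the 48 h range in every day 10 mouse but did not pass. Tfap2b (-1.31) and Pou3f3 (-0.94) passed without mouse 1. Of 4 macula densa genes tested 1 was higher. Pappa2, a protease of insulin-like growth factor binding proteins, was 1.99, 8.97 and 5.99 CPM at day 10 and 0.799 and 0.141 CPM at 48 h (log2 fold change 3.29, SE 0.81, adjusted p = 0.0433). The levels were low, and the call failed without mouse 2, 4 or 5 (2.71, 2.80 and 3.24). Nos1, the macula densa nitric oxide synthase, had 1.33, 2.83 and 2.99 CPM at day 10 and 2.24 and 2.11 CPM at 48 h and did not pass (0.07).

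Cells of the medulla hold organic osmolytes against the salt around them, and the transcription factor NFAT5 drives their uptake and synthesis. Slc5a3, the sodium-coupled myo-inositol transporter, was 356, 398 and 345 CPM at day 10 and 1372 and 1192 CPM at 48 h (log2 fold change -1.81, SE 0.13, adjusted p = 0.00108). The day 10 mice lay close together and far below the 48 h mice, and the gene passed under each of the 14 alternatives, between -1.91 and -1.45. The taurine transporter Slc6a6, another osmolyte carrier, was 12.1, 21.7 and 13.3 CPM at day 10 and 5.19 and 5.91 CPM at 48 h (log2 fold change 1.48, SE 0.29, adjusted p = 0.0241), and failed without mouse 1, 2 or 5 (1.37, 1.56 and 1.59). Nfat5 itself (0.29), the sorbitol-making aldose reductase Akr1b3 (0.33) and Hspa4l (-0.30) did not pass. Without TMM factors Nfat5 (0.65) and Akr1b3 (0.70) did, and Akr1b3 also passed without mouse 1 (0.72) but was 0.04 without mouse 2. The 8 tested genes gave 1 lower and 1 higher with a median of -0.01 (0.35 without TMM factors), and 1 lower and 0 higher without mouse 5.

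**Figure D2:**
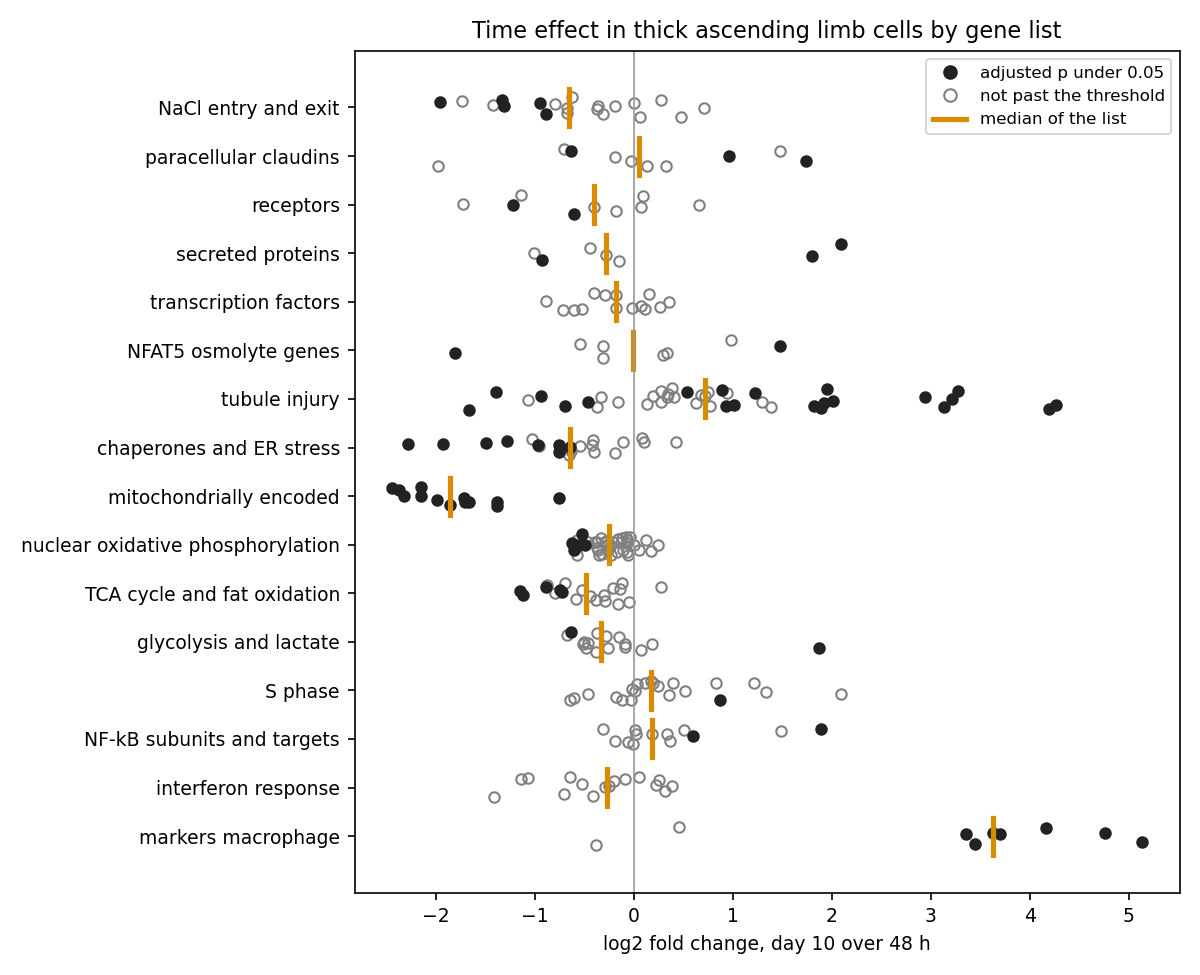
Log2 fold change of day 10 over 48 h for the tested members of each gene group in thick ascending limb cells, with black points for genes past the adjusted p of 0.05 and an orange bar at the group's median. The mitochondrially encoded genes lie lowest of the tubule's own groups (median -1.85), and the tubule injury group has members on both sides, with 16 higher and 5 lower.

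Genes of the injured tubule gave 16 higher and 5 lower of 41 tested (median log2 fold change 0.72, and 1.08 without TMM factors). Osteopontin (Spp1), a secreted phosphoprotein, was 40645, 31073 and 32199 CPM at day 10 and 98454 and 83655 CPM at 48 h (log2 fold change -1.39, SE 0.21, adjusted p = 0.0112). The extracellular chaperone clusterin (Clu) was 4249, 2619 and 3181 CPM at day 10 and 11714 and 9545 CPM at 48 h (log2 fold change -1.67, SE 0.22, adjusted p = 0.00881). Both were lower in every day 10 mouse. Lipocalin-2 (Lcn2), the urinary injury marker NGAL, was 3034, 3427 and 2643 CPM at day 10 and 3909 and 2851 CPM at 48 h, overlapping and not passing (log2 fold change -0.16, SE 0.19, adjusted p = 0.623). Havcr1 (KIM-1), chiefly a proximal tubule injury gene, ranged from 8.49 to 42.4 CPM at day 10 and had 56.7 and 7.17 CPM at 48 h (-0.33, not passing).

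Keratin 19 (Krt19), an intermediate filament of simple and ductal epithelia, was 77.8, 130 and 122 CPM at day 10 and 4.64 and 7.74 CPM at 48 h (log2 fold change 4.19, SE 0.32, adjusted p = 0.00114), and it passed under all 14 alternatives, between 3.49 and 4.55. S100a6, a calcium-binding protein, was 2827, 2502 and 1782 CPM at day 10 and 379 and 132 CPM at 48 h (log2 fold change 3.21, SE 0.46, adjusted p = 0.0101). Every day 10 mouse stood well above both 48 h mice in both genes. Keratin 18 (1.92), keratin 7 (1.22), annexin A1 (1.95) and the actin-binding Tmsb4x (2.02) also rose. The keratin 18 partner Krt8, at 555, 472 and 500 CPM at day 10 and 457 and 312 CPM at 48 h, did not pass (0.40). Of the same group Vim, Tmsb10, S100a10, S100a11, Anxa2, C3, Fga, Fgg and Timp1 were not called either. The membrane protein Basp1 rose, at 17.7, 30.9 and 23.4 CPM at day 10 and 1.28 and 1.13 CPM at 48 h (log2 fold change 4.26). The adhesion molecule Vcam1 did so at 6.84 to 12.6 CPM at day 10 against 1.60 and 0.281 CPM at 48 h (3.27). The growth factor receptor Met (-0.69), the integrin Itgav (-0.46) and Cd24a (-0.93), a membrane glycoprotein of injured tubule cells, were lower.

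Without mouse 5 the injury group had 4 higher and 0 lower, and Spp1 (log2 fold change -1.34), Clu (-1.63), S100a6 (3.38), Krt18 (1.92), Vcam1 (3.23) and Cd24a (-0.88) no longer passed. Spp1 and Cd24a also failed without mouse 4 (-1.32 and -0.90). Among cells with under 20% mitochondrial UMIs the group had 15 higher and 5 lower. Basp1 and Vcam1 are also expressed by immune or endothelial cells, whose RNA moved between the times as given above. The part of that RNA in these genes was not tested.

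Beyond the list, the rise in the protease matrilysin (Mmp7), which sheds surface proteins of epithelia, was to 192, 118 and 101 CPM at day 10, against 13.6 and 8.72 CPM at 48 h (log2 fold change 3.60, SE 0.34, adjusted p = 0.00277). Srd5a1, the steroid 5-alpha-reductase, was 75.8, 91.3 and 66.0 CPM at day 10 and 11.7 and 4.50 CPM at 48 h (log2 fold change 3.19, SE 0.35, adjusted p = 0.00415). Both passed under all 14 alternatives. The tendon transcription factor Scx (2.17), Tmem158 (2.09) and the surface antigen Psca (6.24) were among the other large rises, as was the ferroxidase ceruloplasmin (Cp, 3.14), a member of the injury group counted above. Psca was 15.7, 191 and 73.7 CPM at day 10 and 1.60 and 0.563 CPM at 48 h. In each day 10 mouse 2 to 4 cells held 50% of its UMIs. It led cluster 6, described below, and without clusters 1 and 6 its log2 fold change was 4.56. Mmp7 was also uneven, with 50% of its UMIs in 6, 4 and 8 cells at day 10 and in 4 and 1 cells at 48 h. For Krt19 the numbers were 29, 10 and 20 cells at day 10 and 10 and 3 at 48 h. For S100a6 they were 22, 12 and 11 cells at day 10 and 16 and 6 at 48 h. Without mouse 5 Cp (3.31), Scx (2.23), Tmem158 (2.04) and Psca (6.40) failed. Psca also failed without mouse 2 (5.82) and Tmem158 without mouse 2 or 3 (1.54 and 1.86).

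To set cells of unequal depth side by side, each was thinned to 1000 UMIs, and endothelial cells were set beside them. Their share is a guide to free RNA only for genes that they do not express themselves, which was not tested for each gene. Krt19 was found in 6.44, 9.74 and 11.3% of thick ascending limb cells at day 10 and in 0.439 and 0.580% at 48 h, against 0.646 to 0.846% of endothelial cells at day 10 and 0.242 and 0.776% at 48 h. The 95% exact (Clopper-Pearson) intervals, which cover counting error only, were 4.29 to 9.24%, 5.97 to 14.8% and 7.88 to 15.5% in mice 3, 4 and 5 and 0.0907 to 1.28% and 0.0703 to 2.08% in mice 1 and 2. Without thinning, Krt19 was found in 41.3, 49.2 and 45.4% of cells at day 10 and 5.42 and 4.93% at 48 h. Slc5a3 was in 31.5, 27.2 and 33.1% of thinned cells at day 10 and 57.2 and 59.4% at 48 h. Cldn16 was in 12.9, 6.67 and 6.49% at day 10 and 3.81 and 3.48% at 48 h. Umod was in 90.7, 78.0 and 90.4% at day 10 and 95.9 and 97.1% at 48 h. Slc12a1 was in 55.1, 59.0 and 61.4% at day 10 and 53 and 82.9% at 48 h, which overlap.

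**Figure D3:**
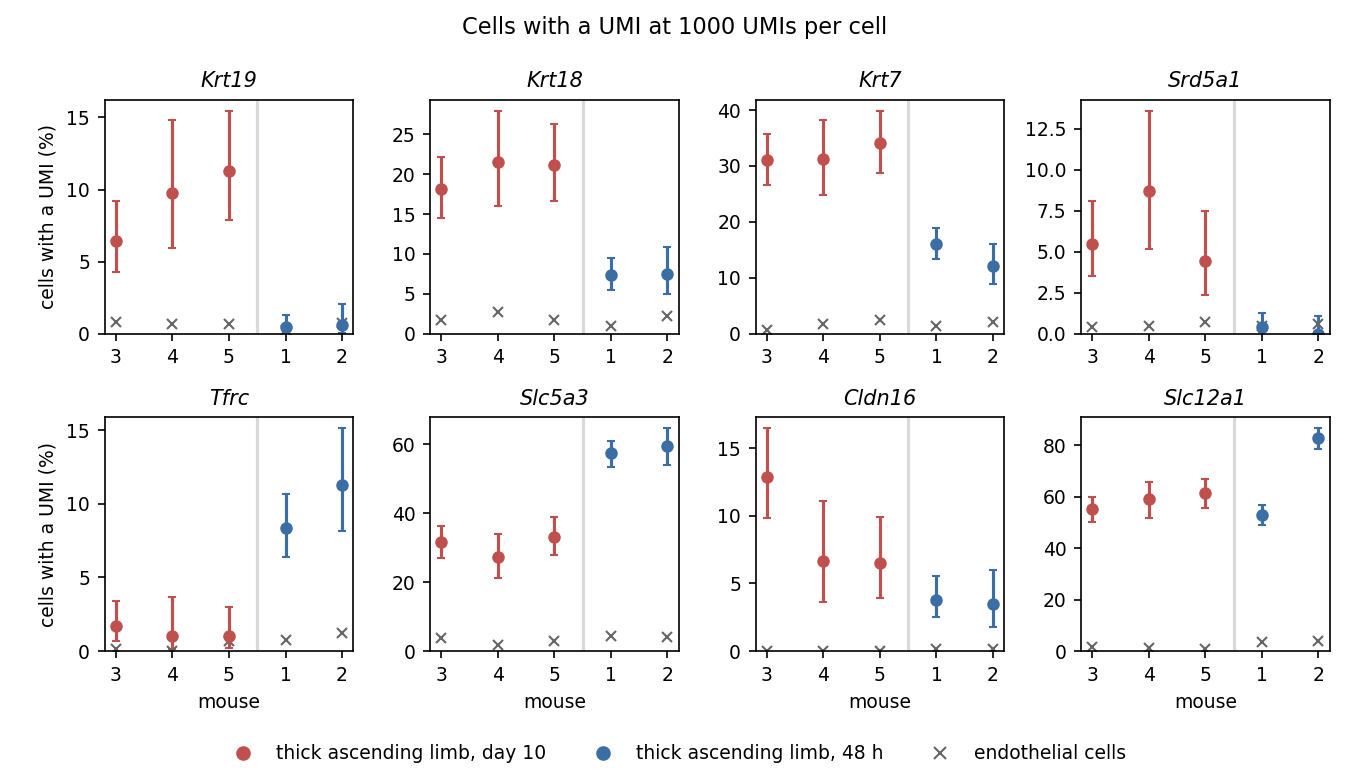
Percent of thick ascending limb cells with at least 1 UMI of 8 genes after thinning each cell to 1000 UMIs, per mouse, with day 10 left of 48 h, 95% exact intervals as bars and crosses for endothelial cells of the same mouse. Krt19 and Srd5a1 are higher in the 3 day 10 mice than in both 48 h mice, and Slc5a3 and Tfrc are higher in the 48 h mice.

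The cells of each time fell into separate kinds when clustered anew. Of 6 clusters, cluster 5 (480 cells, led by S100a6, Mmp7, Ccl20 and Krt19) held 49.9, 56.9 and 50.2% of the cells of the day 10 mice and 1.61 and 0.580% of those of the 48 h mice. Cluster 4 (346 cells, led by Car15, Sfrp1, Tmem52b and Id3) held 38.9, 27.7 and 32.1% of the day 10 cells and 3.81 and 2.61% of the 48 h cells. Most 48 h cells lay in the other main clusters. Cluster 2 (476 cells, led by Vgf, Las1l and Clu) held 1.91, 0 and 2.39% of the day 10 cells and 53 and 28.7% of the 48 h cells. Cluster 3 (368 cells, led by Tmem207, Ppp1r1b and Kcnj10) held 2.15, 1.54 and 4.44% of the day 10 cells and 23.1 and 53.6% of the 48 h cells. Cluster 1 (221 cells) had a median of 3963 UMIs and was led by hemoglobin and proximal tubule genes. Cluster 6 (44 cells) was led by Igfbp2 and by immune genes and held 10 of the 15 called doublets. Without clusters 1 and 6, 1221 genes differed between the times.

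Within each time Slc12a1 and Egf differed between the 2 main clusters in the same direction in every mouse. At day 10 Slc12a1 was 601, 1144 and 863 CPM of a cluster's UMIs in cluster 5 and 2556, 4072 and 3247 CPM in cluster 4. Egf was 16.1, 19.9 and 10.1 CPM in cluster 5 and 253, 247 and 359 CPM in cluster 4. Cldn16 was 86.7, 70.2 and 53.9 CPM in cluster 5 and 203, 162 and 155 CPM in cluster 4. S100a6 ran opposite, with 4722, 3657 and 2941 CPM in cluster 5 and 807, 802 and 479 CPM in cluster 4.

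At 48 h Slc12a1 was 648 and 1020 CPM in cluster 2 and 2532 and 4507 CPM in cluster 3. Egf was 27.9 and 53.05 CPM in cluster 2 and 102 and 429 CPM in cluster 3. Cldn16 did not split alike between these clusters at 48 h, with 33.01 and 39.0 CPM in cluster 2 and 30.9 and 50.8 CPM in cluster 3. In the 26 cluster 4 cells of 48 h mouse 1 it was higher, at 97.7 CPM. Clu was 11729 and 16088 CPM in cluster 2 and 5143 and 3893 CPM in cluster 3. Cldn10 was close between the kinds at day 10 (596, 599 and 681 CPM in cluster 5, 493, 594 and 580 CPM in cluster 4). At 48 h it was 282 and 263 CPM in cluster 2 and 681 and 737 CPM in cluster 3. Slc5a3 did not split this way. It was 364 to 448 CPM in cluster 5 and 412 to 419 CPM in cluster 4 at day 10, and 1185 and 1009 CPM in cluster 2 and 1371 and 1116 CPM in cluster 3 at 48 h. Both main clusters of day 10 were thus below both main clusters of 48 h. The 26 cells of 48 h mouse 1 that lay in cluster 4 had 242 CPM, which is below these day 10 values. Krt19 was 115 to 200 CPM in cluster 5 and 43.7 to 123 CPM in cluster 4 at day 10, and at most 11.7 CPM in clusters 2 and 3 at 48 h. These genes took part in the clustering, so the values describe the clusters and no test was made.

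**Figure D4:**
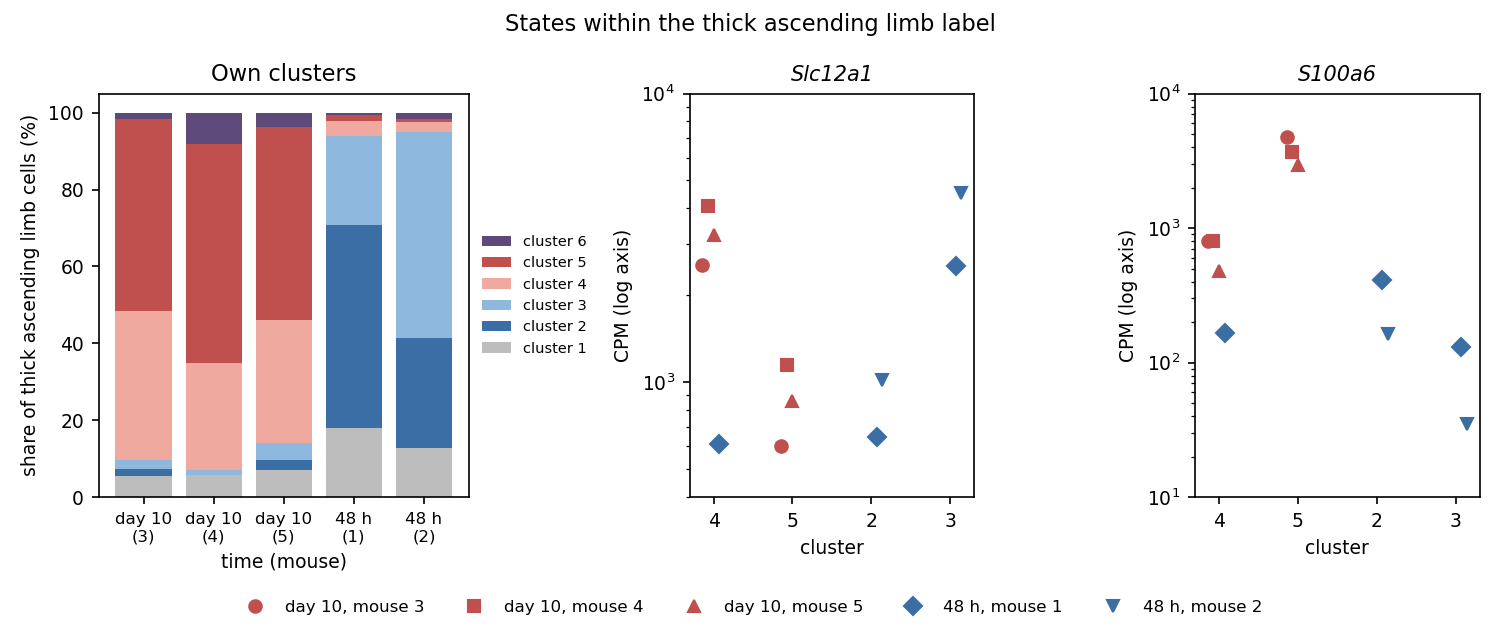
Share of each mouse's thick ascending limb cells in the 6 clusters (stacked bars, day 10 mice left of 48 h mice) and CPM of Slc12a1 and S100a6 in the main clusters of each time. Cluster 5, at 49.9 to 56.9% of day 10 cells, has more S100a6 and less Slc12a1 than cluster 4 in each of the 3 mice.

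The 13 tested mitochondrially encoded genes were all lower at day 10, with a median log2 fold change of -1.85 (-1.50 without TMM factors). The complex I subunit mt-Nd4 was 3199, 3246 and 3375 CPM at day 10 and 17448 and 16473 CPM at 48 h (log2 fold change -2.37, SE 0.14, adjusted p = 0.00053). Mitochondrial transcripts were 7.42, 8.88 and 7.74% of the summed thick ascending limb UMIs at day 10 and 21.6 and 21.7% at 48 h. In distal tubule and principal cells they were 10.8, 12.0 and 11.7% at day 10 and 12.2 and 14.1% at 48 h. In proximal tubule cells they were 22.3, 21.9 and 22.5% at day 10 and 19.4 and 21.9% at 48 h, so the gap between the times was far wider in the thick ascending limb than in these types. The difference between types is tested gene by gene below. The deposited filter removes cells above 35%, and more of the 48 h cells lay near it, as given above. Its part in the result was not tested. With only cells under 20% mitochondrial UMIs, a limit that lowers the 48 h level by construction, 12 of the 13 still passed as lower with a median of -1.17. Only 6 passed without mouse 5.

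**Figure D5:**
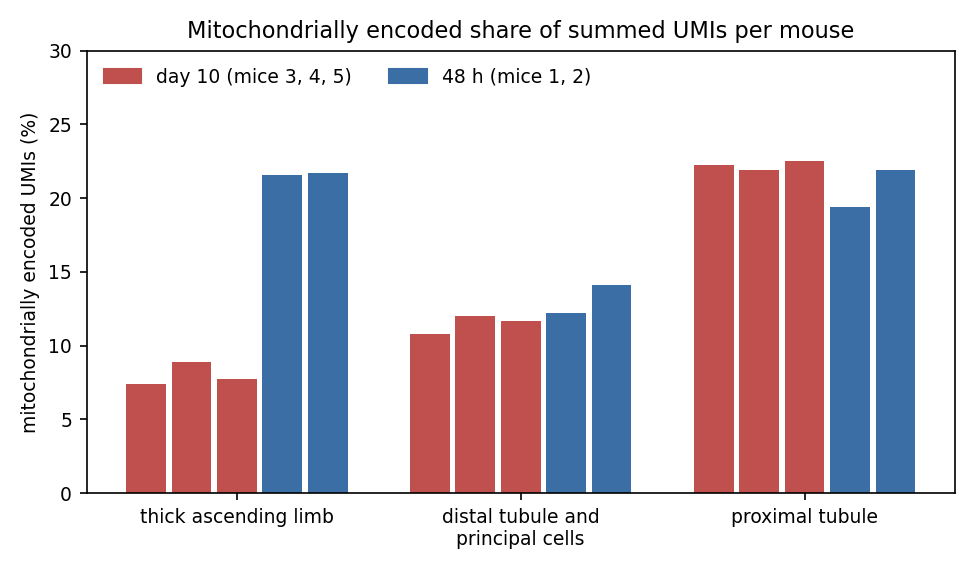
Percent of summed UMIs from mitochondrially encoded genes per mouse in thick ascending limb, distal tubule with principal, and proximal tubule cells, with day 10 left of 48 h. The thick ascending limb points are 7.42 to 8.88% at day 10 and 21.6 and 21.7% at 48 h, and the other types show a far smaller gap.

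Genes of nuclear DNA for the same work moved less. Of 38 nuclear subunits of oxidative phosphorylation 5 were lower and 0 higher (median log2 fold change -0.25, and 0.11 without TMM factors), among them cytochrome c (Cycs, -0.62) and Ndufa2 of complex I (-0.60), both of which failed without TMM factors. Of 20 genes of the citric acid cycle and fat oxidation 5 were lower, among them the fatty acid enzymes Acadvl (-1.15) and Cpt2 (-1.11), with a median of -0.48 (-0.12 without TMM factors). Pdk4, the kinase that shuts off pyruvate dehydrogenase in favour of fat, was 8.64, 7.79 and 17.6 CPM at day 10 and 93.3 and 107 CPM at 48 h (log2 fold change -3.13, SE 0.29, adjusted p = 0.00277) and passed under all 14 alternatives. Angptl4, an inhibitor of lipoprotein lipase and like Pdk4 a target of PPAR receptors, was 34.2, 10.4 and 61.0 CPM at day 10 and 178 and 153 CPM at 48 h (-2.21, adjusted p = 0.0365).

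Glycolysis had 1 higher and 1 lower of 16 (median -0.33, and 0.03 without TMM factors). Hexokinase 2 (Hk2) was 72.7, 37.8 and 29.3 CPM at day 10 and 14.1 and 11.4 CPM at 48 h (1.88). Pyruvate kinase Pkm was lower (-0.64, and it failed without TMM factors). Bckdhb of branched-chain amino acid breakdown (-2.16) was among the 10 largest falls. So was Nampt, which makes the precursor of NAD, at 39.8, 43.9 and 42.6 CPM at day 10 and 231 and 105 CPM at 48 h. Without mouse 5 none of the nuclear subunits or citric acid cycle and fat oxidation genes passed, and Acadvl (-1.32), Cpt2 (-1.20), Angptl4 (-2.83), Hk2 (2.12), Bckdhb (-2.06) and Nampt (-2.01) failed. Angptl4 also failed without mouse 2 or 3 (-2.31 and -2.17). Hk2 failed without mouse 2, 4 or 5 in turn, between 1.74 and 2.12.

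Of 22 chaperone and stress genes 8 were lower and 0 higher (median log2 fold change -0.64, and -0.28 without TMM factors). The 8 all act in the endoplasmic reticulum or its stress response. The cytosolic heat shock genes of the list did not pass, with values between -0.95 (Hsph1) and 0.43 (Hsp90ab1). The others were Hspa1b (-0.65), Hspa1a (-0.40), Dnajb1 (-0.18), Hspa8 (-0.10), Hsp90aa1 (0.08) and Hspb1 (0.10). Pdia3 (-0.63) and Manf (-1.03) of the endoplasmic reticulum did not pass either. BiP (Hspa5), the main chaperone of that compartment, was 646, 237 and 240 CPM at day 10 and 1643 and 1204 CPM at 48 h (log2 fold change -1.92, SE 0.42, adjusted p = 0.0323). Grp94 (Hsp90b1) was 577, 330 and 344 CPM at day 10 and 1217 and 1127 CPM at 48 h (log2 fold change -1.49, SE 0.24, adjusted p = 0.0138). Sdf2l1, a cofactor of BiP, was 34.2, 9.20 and 11.5 CPM at day 10 and 100 and 85.1 CPM at 48 h (log2 fold change -2.27, adjusted p = 0.0244). Summed over all its cells, mouse 3 was the highest day 10 mouse in all 3 genes and still below both 48 h mice. By cluster, in CPM of a cluster's UMIs, the 48 h level was uneven. Hspa5 was 1126 and 311 CPM in cluster 2 of mice 1 and 2, and 2293 and 1495 CPM in cluster 3. At day 10 it was 580 and 917 CPM in clusters 5 and 4 of mouse 3, above cluster 2 of mouse 2. In these clusters of mice 4 and 5 it was 217 to 274 CPM, below cluster 2 of both 48 h mice. Sdf2l1 was 55.9 and 11.3 CPM in cluster 2 at 48 h, higher in cluster 3, and 8.88 to 49.5 CPM in these day 10 clusters.

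The other genes of the list that fell in the summed cells were Pdia4 (-1.27), Xbp1 (-0.97), Canx (-0.76), Calr (-0.75) and Dnajb9 (-0.64). Outside the list Hyou1, another chaperone of this compartment, was also lower, at 26.0, 20.8 and 19.5 CPM at day 10 and 69.7 and 89.6 CPM at 48 h (-1.84, adjusted p = 0.00277). It passed under every alternative in which it was tested. The stress factors Atf4 (-0.54) and Ddit3 (-0.42) did not pass. None of the 22 passed without mouse 5, with Hspa5 at -1.68, Sdf2l1 at -2.03 and Hsp90b1 at -1.37. Without mouse 4, 2 passed, with Hspa5 at -1.68 and Sdf2l1 at -1.99 not among them. Hspa5 also failed without mouse 1 (-1.69). Among cells with under 20% mitochondrial UMIs 1 of the 22 passed, with Hspa5 at -1.34 and Hsp90b1 at -0.92.

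Promoters of several of these genes hold the endoplasmic reticulum stress response element, CCAAT and CCACG 9 bases apart, which binds NF-Y and, on stress, ATF6 or XBP1. The letters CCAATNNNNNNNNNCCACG were searched on both strands of the window from 250 bases before to 50 after each start site in RefSeq (GRCm38.p6, the build that mm10 names). The stretches around the matches are shown for the list members that hold them, on the gene's strand and with the letters of the element in capitals. CGTGG and ATTGG in capitals are a match on the other strand.
Hspa5 (chr2:34772010-34772058, + strand): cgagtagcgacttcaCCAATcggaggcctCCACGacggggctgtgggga
Hsp90b1 (chr10:86705518-86705671, - strand): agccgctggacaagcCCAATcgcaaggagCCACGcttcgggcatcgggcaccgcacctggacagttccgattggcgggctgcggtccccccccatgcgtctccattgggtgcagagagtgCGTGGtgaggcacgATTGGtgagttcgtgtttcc
Calr (chr8:84847060-84847108, - strand): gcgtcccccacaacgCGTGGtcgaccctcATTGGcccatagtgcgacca
Canx (chr11:50325785-50325833, - strand): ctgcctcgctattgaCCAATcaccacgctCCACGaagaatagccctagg
Pdia6 (chr12:17266476-17266524, + strand): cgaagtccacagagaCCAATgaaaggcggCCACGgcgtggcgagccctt

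The element was in the windows of 37 of 27025 genes (0.137%) and of 16 of 9959 tested genes with a window (0.161%). Of these 16 tested genes 10 were lower and 0 higher at day 10 (median log2 fold change -0.84). Of the 18 list members with a window 5 matched, namely the 5 printed above, of which Hspa5, Hsp90b1, Calr and Canx fell and Pdia6 did not pass (-0.65, adjusted p = 0.0752, edgeR). Outside the list 11 tested genes matched and 6 were lower. These were Derl3 (-3.67), Creld2 (-1.56), Dnajc3 (-1.17) and Syvn1 (-0.92), all of which act in folding or disposal of proteins in the endoplasmic reticulum, with the glycosylation enzyme Alg12 (-1.17) and the acetyl-CoA carboxylase Acacb (-1.66). Derl3 had 2.55, 0 and 0.166 CPM at day 10 and 9.11 and 21.2 CPM at 48 h. Sdf2l1, Xbp1, Pdia4 and Dnajb9 fell with no match of these letters in the window, and a match is a description of the sequence, not of binding.

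The transferrin receptor (Tfrc), through which cells take up iron, was 13.0, 13.0 and 15.96 CPM at day 10 and 87.6 and 133 CPM at 48 h (log2 fold change -2.98, SE 0.20, adjusted p = 0.000929). Fth1, the heavy chain of the iron store ferritin, was 4470, 3927 and 4708 CPM at day 10 and 15121 and 14122 CPM at 48 h (log2 fold change -1.74, SE 0.15, adjusted p = 0.00230). Tfrc and Fth1 were lower in every day 10 mouse and passed under all 14 alternatives. The light chain Ftl1 was 1619, 1849 and 1885 CPM at day 10 and 2292 and 1391 CPM at 48 h and did not pass (-0.05). After thinning, Tfrc was in 1.67, 1.03 and 1.02% of thick ascending limb cells at day 10 and in 8.35 and 11.3% at 48 h. In endothelial cells it was in 0 to 0.709% at day 10 and 0.727 and 1.24% at 48 h. In the glutathione and ferroptosis group Fth1, Gclc (-1.19), which makes glutathione's precursor, and the lipid enzyme Acsl4 (-0.73) were the 3 lower of 15, with 0 higher. Without mouse 5, 1 of the 15 passed. The ferroptosis guard Gpx4 did not pass (-0.04). Gclc failed without mice 1, 3 or 5 in turn (-0.86, -1.03 and -1.04) and both Gclc and Acsl4 failed without TMM factors. The metal-binding Mt1 was 2060, 5402 and 2629 CPM at day 10 and 8449 and 10268 CPM at 48 h (-1.48, adjusted p = 0.0454), and failed without mouse 2, 3 or 5 (-1.33, -1.21 and -1.32).

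Among 16 chemokines and cytokines tested, a list that also holds Spp1, 4 were higher and 4 lower (median -0.42, and -0.06 without TMM factors). The chemokine Cxcl12 was 14.2, 16.05 and 14.96 CPM at day 10 and 2.56 and 4.36 CPM at 48 h (2.16). The interferon-induced Cxcl10 was 14.6, 7.32 and 9.64 CPM at day 10 and 29.8 and 34.9 CPM at 48 h (-1.57). Fractalkine (Cx3cl1), which attracts monocytes and T cells, was lower (-0.82). Of 13 NF-kB genes the adhesion molecule Icam1 (1.89) and the inhibitor Nfkbia (0.60) were higher. Of 21 TGF-beta, PDGF and matrix genes fibronectin (Fn1, 3.49) and Tgfb2 (3.07) were higher and the TGF-beta activating integrin Itgb8 lower (-1.33). Fn1 and Tgfb2 were far lower here than in the other kept cells summed (28.4 against 377 CPM and 1.36 against 9.43 CPM, without TMM factors). The part of free RNA in their rise was not tested. In the comparison with distal cells below, the difference in time effect of Fn1 did not pass (2.29). Of 11 p53 targets Phlda3 (2.79) and Bbc3 (0.93) were higher while Cdkn1a (1.02) did not pass. None of 11 EGF family genes or 16 interferon response genes passed. Of 21 S-phase genes 1 (Mcm7, 0.87) was higher, and of 14 genes of the later cycle 1 was higher and 2 lower. Without mouse 5 none of the chemokine, NF-kB and cell cycle genes passed, and 1 gene each of the matrix and p53 groups did. Cxcl12 (2.16), Cxcl10 (-1.50), Icam1 (1.72), Itgb8 (-1.22), Tgfb2 (3.1), Nfkbia (0.60), Bbc3 (0.87) and Mcm7 (0.89) failed then. Tgfb2 and Nfkbia also failed without mouse 1, 2 or 4, Bbc3 without mouse 1, 2 or 3 and Mcm7 without mouse 2, 3 or 4. These 4 genes failed among cells with under 20% mitochondrial UMIs too. Fn1 and Phlda3 passed without each mouse in turn.

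Of 8 MHC class II pathway genes 7 were higher and 0 lower (median log2 fold change 3.75), and of 9 macrophage markers 7 were higher (median 3.63). Without mouse 5, 4 of 7 class II genes tested and 5 of the 9 macrophage markers passed. Of 10 MHC class I genes H2-D1 was higher and Tapbp and Tap2 were lower (median 0.32), and none passed without mouse 5. H2-Aa, a class II chain, was 39.2, 28.1 and 68.7 CPM at day 10 and 2.24 and 1.97 CPM at 48 h (4.41). The complement gene C1qa was 53.3, 49.6 and 60.5 CPM at day 10 and 2.88 and 3.23 CPM at 48 h (4.16). The summed macrophage markers were 1.35, 1.61 and 1.72% of their level in the immune label at day 10 and 0.263 and 0.357% at 48 h. Without clusters 1 and 6, 5 class II genes and 6 macrophage markers were still higher and 1 macrophage marker was lower. In thinned cells C1qa was in 2.15, 5.13 and 5.80% of thick ascending limb cells at day 10 and in 4.37, 7.75 and 8.51% of endothelial cells. Cd74, the invariant chain of class II, was in 5.97, 3.59 and 7.85% of thick ascending limb cells and 14.1, 8.56 and 20.4% of endothelial cells. Endothelial cells can express class II genes themselves, so their share is no measure of free Cd74 RNA. The part of free RNA in these values was not tested. Igfbp2, a binding protein of insulin-like growth factors, had 220, 2462 and 60 UMIs at day 10 and 0 and 0 at 48 h. In mouse 4 at least 50% of the 2462 UMIs lay in 2 of its 195 cells.

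The time effect was then compared with that in the distal convoluted tubule, connecting tubule and principal cells of the same mice (1376 cells), in a fit with mouse as a block. Cells labelled as injured distal tubule were left out, so the comparison is with distal cells not labelled as injured. In mice 1, 2, 3 and 5 that label had the most Umod of the other labels (1903, 3060, 1265 and 1583 CPM). The effect differed for 1123 of 12910 genes (8.70%), higher in the thick ascending limb for 609 (4.72%) and lower for 514 (3.98%). Krt19 had a log2 fold change of 4.19 in thick ascending limb cells and of 0.22 in distal cells (difference 3.92, SE 0.25, adjusted p = 7.3e-05, edgeR). Anxa1, S100a6 and Srd5a1 also differed upward (2.65, 2.62 and 2.43). Of 42 injury genes 14 differed upward and 3 downward, with Clu among the 3 (-0.96). Spp1 had -1.39 in thick ascending limb and -1.53 in distal cells (difference 0.05, SE 0.26, not passing).

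The mitochondrially encoded genes differed downward for 12 of 13, with mt-Nd4 at -2.37 in thick ascending limb and -0.62 in distal cells (difference -1.75, SE 0.13). Of 20 sodium chloride genes 7 differed downward. Slc12a1 differed upward (2.35) with a value of -2.89 in the distal cells, a type that normally does not use it. Of the chaperones 10 of 22 differed downward and 1 upward, with Hspa5 at -1.92 in thick ascending limb and -0.28 in distal cells (difference -1.78). Tfrc (-2.62) and Slc5a3 (-1.12) also differed downward. The differences of Tfrc and Clu failed without mouse 3 (-2.56 and -0.87) or 5 (-2.57 and -0.84), and that of Slc12a1 without mouse 4 (2.12) or 5 (2.31). Umod, Cldn16, Kcnj1 and Slc9a3 did not pass (0.55, -0.21, -1.04 and -0.06). The fall of Slc9a3 was thus not resolved from that in distal cells, while against proximal tubule cells its difference was -2.14 and passed. With proximal tubule cells in place of the distal cells Krt19 (2.88), Anxa1 (2.02), S100a6 (4.07), Srd5a1 (3.31) and mt-Nd4 (-2.44) still passed, and Hspa5 (-0.69), Tfrc (-0.70), Clu (-0.35), Slc12a1 (0.70) and Slc5a3 (-0.42) did not. Without mouse 3, 4 or 5 the count was 285, 408 or 307, and without mouse 1 it was 1744.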

How the data were processed

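Kidney cells of 5 mice were profiled with the droplet 3' kit, version 3.1, of 10x Genomics, per the labels' protocols. The authors deposited raw UMI count matrices per library and a table with each cell's count, percent of mitochondrial UMIs, cluster and cell type label. Cell Ranger 6.0.2, Seurat 4.0.5 and mm10 are named in the submitters' processing notes, and Cell Ranger 6.0.0 per the file headers of the matrices; which made the files is not given in the sources used here. The deposited counts and percents equalled those recomputed from the matrices in every cell. Kept cells have at least 1000 UMIs, 301 to 6999 genes and under 35% mitochondrial UMIs. Removal of doublets or of free RNA is not given in the sources used here. Scrublet (in scanpy 1.11.5) called 0.0768 to 2.18% of a library's kept cells, and at such rates in mice 2, 3 and 4 (0.457, 0.102 and 0.0768%) it cannot be taken to have worked there.

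UMIs of thick ascending limb cells were summed per mouse. Genes past filterByExpr were tested by the quasi-likelihood method of edgeR 4.0.16 in R 4.3.3 with TMM factors, and p-values were adjusted by Benjamini-Hochberg over all of them, with a threshold of 0.05. The replicate is the mouse, and the labels do not say more than that mice are separate. Label shares were tested likewise on cell numbers with the kept cells as offset. The time effect was set against that of distal cells with an interaction term and mouse as a block. The injured distal label was left out of the distal cells, and the injured and cycling labels out of the proximal tubule cells. Cells were clustered anew on 2000 variable genes (Leiden, resolution 0.3), and shares were taken after thinning each cell to 1000 UMIs. The test was tried on simulated counts, and the outcome is not reported here. Alternatives were DESeq2 1.42.0, other scalings and filters, equal cell numbers, doublets removed, cells under 20% mitochondrial UMIs, and each mouse left out. Genes were named by a rule: members of the thick ascending limb lists, the 10 largest rises and falls with non-overlapping CPM, a mean log2 CPM of at least 5 and at least 0.2 times the level of other cells, and up to 3 rises and 3 falls per list. Other members stand as list examples, and some results are not reported here. Derl3, Creld2, Dnajc3, Syvn1, Alg12, Acacb and Hyou1 as a chaperone were singled out after their values were seen. The cells, the lists and the rule were chosen with earlier results of these data known.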

Additional observations from a re-analysis of the deposited data

Results flagged for a closer look

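The time effect of 9 named genes differed between thick ascending limb and distal tubule with principal cells, by the interaction term of the edgeR fit with mouse as a block, on the log2 scale. The effect was higher in the thick ascending limb for Krt19 (3.92), the membrane carbonic anhydrase Car15 (3.24), Anxa1 (2.65) and S100a6 (2.62). It was lower for the immunoglobulin transporter Pigr (-3.19), the phosphatase inhibitor Ppp1r1b (-3.14), Tfrc (-2.62), Glod5 (-2.39) and Mt1 (-2.20). For Pigr the thick ascending limb had -0.79 and the distal cells 2.43, and for Ppp1r1b -1.73 and 1.38, with neither passing alone in the distal cells. With proximal tubule cells as the other type the values of Car15 (1.502), Ppp1r1b (-0.82), Tfrc (-0.70), Glod5 (-0.07) and Mt1 (-0.44) no longer passed, while Krt19, Anxa1, S100a6 and Pigr did. The value of Tfrc also failed without mouse 3 or 5 (-2.56 and -2.57).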

How the results depend on the processing

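With all mice 1325 genes differed. The count was 1537 with DESeq2, 1314 with RLE factors, 2429 without a filter on low counts, 97 with equal cell numbers thinned to 1000 UMIs (3257 genes tested), 810 among cells under 20% mitochondrial UMIs, 3484 without TMM factors, and 86 to 1379 with a mouse left out. The thick ascending limb share (-0.99) was between -1.25 and -0.66 with a mouse left out, and -1.25 without mouse 2. It was 0.22 among cells under 20% mitochondrial UMIs, a limit that lowers the 48 h share by construction. Genes with a differing time effect against distal cells (1123) were 1905 without a filter, 1763 without TMM factors (1495 higher, 268 lower) and 285 to 1744 with a mouse left out. Leaving out a 48 h mouse leaves 1, assumed to vary like the day 10 mice.

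Of 100 named genes that passed, 21 did so in every alternative, 76 failed without mouse 5 and 27 among cells under 20% mitochondrial UMIs. Tapbp turned to 0.49 with equal cells. Against proximal tubule the difference turned for Tfap2b (0.16), Egf (0.29), Cycs (0.27), Bmp4 (-0.95), Ppp1r1a (0.42), Angptl4 (-2.19), Fth1 (0.08) and Avpr2 (-0.15), and for Cenpf against distal cells without mouse 1 (-1.26, and up to 3.13 without another mouse). The difference in the percent of cells with Krt20 turned to -0.0298 at 3000 UMIs per cell. The cause was not tested for these. The alternatives without TMM factors, without clusters 1 and 6 and for claudin pairs were chosen after seeing the data. No paired analysis was possible because the groups share no mouse number. With 2 mice at 48 h, few cells per mouse and no uninjured kidney, low genes and small changes are not resolved.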
